A study of Mus musculus with 6 samples.

Results

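The genes of glycolysis and of the response to hypoxia were examined in primary cultures of endothelial cells from the stria vascularis of the mouse cochlea. The set held 38 genes, chosen by symbol from the 24421 genes of the count table: 20 for glucose uptake, the glycolytic steps, and the fate of pyruvate and lactate, 2 regulators of glycolytic flux, 7 for the hypoxia-inducible factors (HIFs) and their degradation, and 9 known hypoxia targets. Of the 6 cultures, 3 came from mice labelled *Nhe6* KO, called knockout here, and 3 came from wildtype mice. Both groups were taken on postnatal day 10 to 12 and were left untreated, each culture held cells pooled from several mice, and RNA of each culture gave 1 library. The labels give C57BL/6N as the strain background of both groups, whereas the methods describe a backcross into C57BL/6J, so that any difference in substrain and the genotype cannot be told apart here.

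Glycolysis splits glucose into pyruvate in the cytosol and yields ATP without oxygen. Pyruvate then enters the mitochondria or is reduced to lactate, which leaves the cell with a proton. Endothelial cells are known to draw most of their ATP from glycolysis even when oxygen is present. The HIFs connect this pathway with oxygen: with oxygen, prolyl hydroxylases mark the alpha subunits for destruction through VHL, and without it the alpha subunits accumulate, pair with ARNT and bind hypoxia response elements beside genes for glycolytic enzymes, lactate export, vessel growth and matrix processing. HIF activity is set largely at the level of protein, which RNA counts do not measure.

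The hypoxia response element has a short core, ACGTG or GCGTG, which was searched on both strands in the 300 bases around each gene start (250 before and 50 after) of the RefSeq promoter table for GRCm38.p6. Of the 38 genes, 34 had a promoter in this table. At least 1 core was present in 27 of these 34 promoters (79.4%), against 43.8% of all 32851 promoters, and at least 2 cores in 18 (52.9%), against 17.3%. Each gene of the set entered with 1 promoter, the one nearest the start of its principal transcript. The comparison counts every promoter listed, alternative ones included, so the shares were not drawn alike. The promoters of the set also had a higher GC content, with a median of 62.8% against 52.7%, and the part of GC content in the share of cores was not tested. Many genes of the set are known HIF targets, so the cores describe the set and carry no information on the cultures. The promoters shown are those of the 5 genes that were higher in every knockout than in every wildtype library and had an entry. *Epas1*, which was also higher, and *Bhlhe40*, which was lower in every knockout library, had no entry. The genes were chosen by this order of the libraries alone. No gene of the set passed the adjusted threshold in the edgeR test described below. Capitals mark the cores on either strand, and overlapping cores were counted as 1. The stretches lie upstream of the RefSeq start used and are written 5′ to 3′ along the gene. For *Ldha*, *Slc16a3* and *P4ha2* they lie inside the gene span of GENCODE M21, which begins farther upstream.
Hk2: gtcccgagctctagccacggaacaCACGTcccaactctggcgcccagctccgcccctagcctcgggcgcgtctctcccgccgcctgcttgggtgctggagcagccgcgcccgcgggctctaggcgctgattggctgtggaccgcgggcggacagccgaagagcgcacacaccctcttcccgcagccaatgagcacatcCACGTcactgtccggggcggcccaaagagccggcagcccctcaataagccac
Ldha: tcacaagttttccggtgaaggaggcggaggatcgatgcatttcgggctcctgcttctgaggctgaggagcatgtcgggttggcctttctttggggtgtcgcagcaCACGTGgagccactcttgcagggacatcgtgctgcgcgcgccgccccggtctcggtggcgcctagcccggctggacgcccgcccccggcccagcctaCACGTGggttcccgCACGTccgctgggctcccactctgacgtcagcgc
Slc16a3: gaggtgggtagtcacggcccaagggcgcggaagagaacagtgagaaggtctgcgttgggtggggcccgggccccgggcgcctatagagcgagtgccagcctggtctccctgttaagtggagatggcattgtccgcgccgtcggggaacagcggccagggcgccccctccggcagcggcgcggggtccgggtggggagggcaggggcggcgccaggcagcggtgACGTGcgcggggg
Pgk1: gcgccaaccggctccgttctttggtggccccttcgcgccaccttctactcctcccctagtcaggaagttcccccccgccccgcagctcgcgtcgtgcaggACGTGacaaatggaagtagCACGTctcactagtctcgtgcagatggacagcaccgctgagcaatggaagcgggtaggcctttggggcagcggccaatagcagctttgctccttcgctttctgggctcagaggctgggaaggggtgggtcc
P4ha2: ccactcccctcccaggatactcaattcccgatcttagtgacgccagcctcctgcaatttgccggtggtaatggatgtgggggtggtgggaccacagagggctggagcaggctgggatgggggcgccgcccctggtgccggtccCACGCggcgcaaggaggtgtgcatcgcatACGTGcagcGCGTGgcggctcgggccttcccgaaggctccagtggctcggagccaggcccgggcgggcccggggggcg
These stretches lie at chr6:82774455-82774704 on the minus strand for *Hk2*, chr7:46845554-46845803 on the plus strand for *Ldha*, chr11:120948817-120949052 on the plus strand for *Slc16a3*, chrX:106186850-106187099 on the plus strand for *Pgk1* and chr11:54100674-54100923 on the plus strand for *P4ha2*. The full window held 2 cores for *Hk2*, 5 for *Ldha*, 2 for *Slc16a3*, 2 for *Pgk1* and 4 for *P4ha2*. The *Slc16a3* stretch stops 14 bases short of the RefSeq start, where an annotated exon begins, and 1 of its cores lies in those bases. In *Ldha*, the core occurs within CACGTG, the E-box that other factors also bind and that 7.15% of all promoters hold. A match is a description of the letters and shows no binding.

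The libraries held 25587097 to 29126232 reads on genes, and values below are normalized counts, that is, counts scaled by edgeR's TMM factors to the mean library size. Wildtype replicate 2 stood apart from the other libraries, and knockout replicates 1 and 2 were far closer to each other than any other pair of libraries. Of 16 endothelial markers, 7 averaged at least 100 normalized counts (*Cdh5*, *Flt1*, *Tek*, *Emcn*, *Eng*, *Egfl7* and *Cd34*), and their list summed to 16889.5 to 25944 in knockout and 15974 to 23657 in wildtype libraries. *Eng* ranged from 866 to 5079, *Cd34* from 793 to 4861 and *Emcn* from 409 (wildtype replicate 2) to 18387. *Cldn5* and *Sox17* had no reads in any library, and *Pecam1* stayed below 8 normalized counts. *Kdr*, *Tie1*, *Vwf*, *Erg*, *Esam* and *Plvap* also averaged below 100. All 10 fibroblast markers averaged at least 100 normalized counts, with sums of 217573 to 251994 in knockout and 175743 to 286556 in wildtype libraries. The fibroblast sum was far above the endothelial sum in every library. Of 10 mural cell markers, 6 averaged at least 100 normalized counts, with *Pdgfrb* at 7785 to 18984. The labelled cell type was thus matched by only part of its markers, beside high levels of markers of other cell types. In such bulk samples fewer cells of a type and less RNA per cell cannot be told apart.

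No gene of the set passed an adjusted p of 0.05 in edgeR's quasi-likelihood test, where 9 of the 13479 genes tested did (0.0668%). All 38 genes were in the table and 37 had enough counts to be tested. At an unadjusted p under 0.05 in the same test, 6 of the 37 were higher and 0 were lower in knockout cultures, against 6.14% and 5.71% of all genes tested (11.8% in either direction). These 6 were *Hk2*, *Ldha*, *Slc16a3*, *Epas1*, *P4ha2* and *Pgk1*. DESeq2 called 4 of the 37 (*Hk2*, *Ldha*, *Slc16a3* and *Epas1*), all higher in knockout cultures, where it called 2.85% of all genes in that direction, and limma-voom called 0. Without wildtype replicate 2, edgeR called *Hk2* and *Ldha* as higher, where it called 1.62% of all genes in that direction. The set as a whole had no common direction: 19 genes had a log2 fold change above 0 and 18 below it, and the median was 0.04, beside −0.02 over all genes tested.

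The 3 knockout libraries lay above the 3 wildtype libraries for the same 6 genes (16.2% of the 37, against 10.4% of all genes tested) and below them for *Bhlhe40* alone (1 of the 37, against 9.54%). In both directions together this made 7 genes or 18.9%, close to the 19.9% of all genes tested that did not overlap. The library that stood apart weighed on the set: wildtype replicate 2 was the highest of the 6 libraries for 9 genes and the lowest for 14, which makes 62.2% of the 37 against 53.3% of all genes tested.

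**Figure D1:**
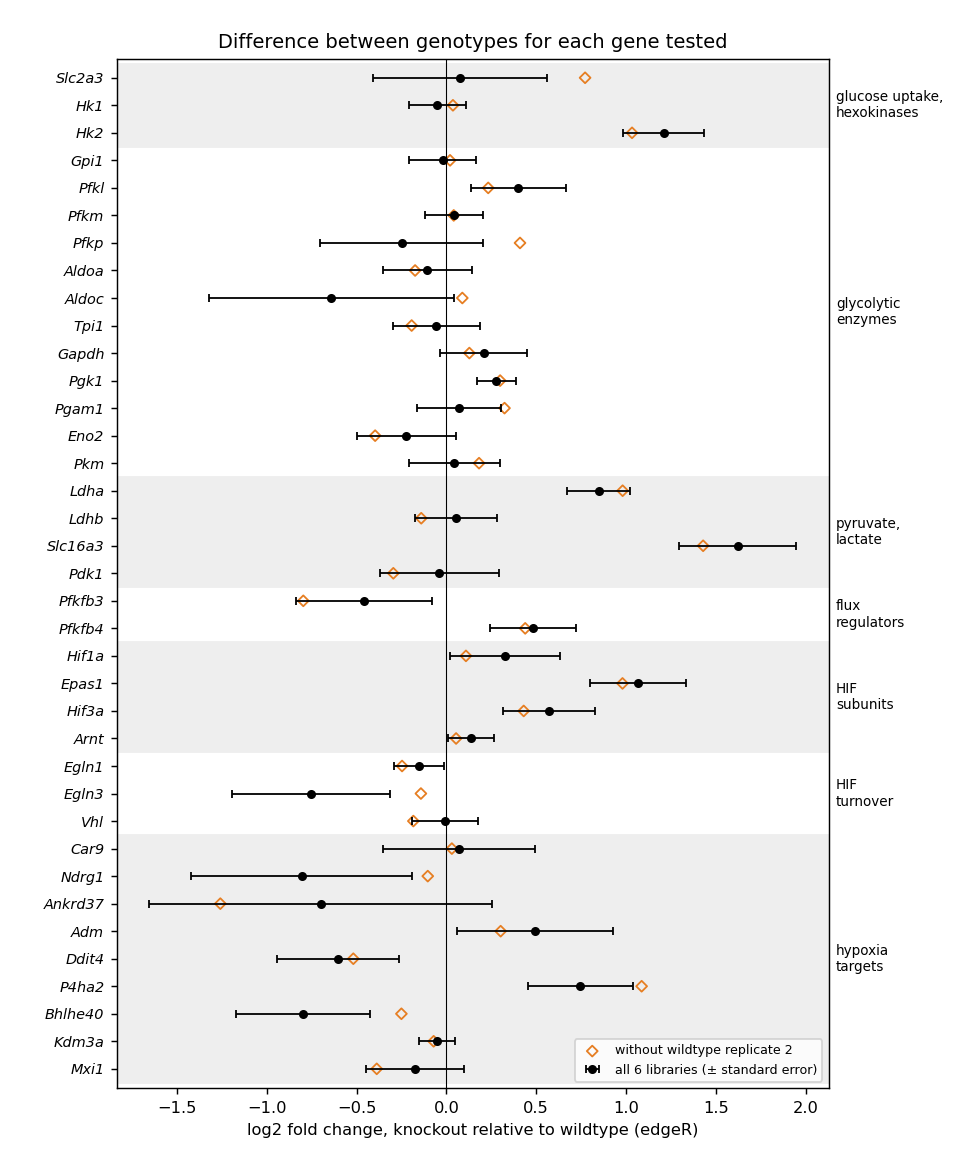
Log2 fold change (knockout relative to wildtype, horizontal axis) of the 37 genes tested, ordered by role, from edgeR with all 6 libraries (black points, bars for the standard error) and without wildtype replicate 2 (open diamonds). *Slc16a3* at 1.62, *Hk2* at 1.21, *Epas1* at 1.06 and *Ldha* at 0.85 lie farthest to the right with all 6 libraries, and for *Slc2a3*, *Pfkp*, *Ndrg1*, *Egln3* and *Bhlhe40* the diamond lies well to the right of the point.

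Glucose enters endothelial cells through facilitative transporters and is trapped by hexokinases. *Hk2* encodes the hexokinase that is known to be inducible and to bind mitochondria. It had 608, 622 and 803 normalized counts in the knockout libraries and 328, 220 and 333 in the wildtype libraries. Even the lowest knockout library stood well above the highest wildtype library. The fold was 2.31 (log2 fold change 1.21 ± 0.22 SE), with an unadjusted p of 0.0014 and an adjusted p of 0.109 in edgeR. The adjusted p was 2.6e-04 in DESeq2 and 0.0473 in edgeR without wildtype replicate 2, and reached 0.471 at the other end of the 14 alternatives. *Hk1*, the constitutive hexokinase, had 3522 to 4188 normalized counts in knockout and 3385 to 4612 in wildtype libraries, a log2 fold change of −0.05 ± 0.16 SE.

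The balance between the hexokinases can be read within each library, free of library scaling, from counts divided by exonic length. *Hk2* made up 17.3%, 17.5% and 24.6% of the summed *Hk1* and *Hk2* level in the knockout libraries. It made up 9.79%, 6.37% and 12.3% in the wildtype libraries. The groups did not overlap, with means of 19.8% ± 4.15 and 9.49% ± 2.98 (SD, n = 3 each). The size of the share depends on the length used: with that of the principal transcript, the means were 10.8% and 4.89%. The exact two-sided permutation p was 0.1, the smallest that 3 against 3 allows, and 0.5 when adjusted over the 10 shares compared. *Hk1* remained the more abundant hexokinase in all 6 libraries on this scale.

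*Slc2a3*, which encodes the high-affinity transporter GLUT3, had 340, 325 and 199.7 normalized counts in the knockout and 179, 484 and 157 in the wildtype libraries. Wildtype replicate 2 was the highest library and the other wildtype libraries were the lowest. The log2 fold change of 0.07 ± 0.48 SE became 0.77 without wildtype replicate 2 (adjusted p = 0.215 in edgeR).

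The 13 enzymes that carry glucose 6-phosphate to pyruvate showed no shared difference. Of the 12 tested, 6 had a log2 fold change above 0 and 6 below it, from −0.64 (*Aldoc*) to 0.40 (*Pfkl*), with a median of 0.01. *Pgk1*, whose enzyme forms ATP directly, was the only one of them without overlap. It had 1816, 1752 and 1569 normalized counts in the knockout and 1383, 1462 and 1391 in the wildtype libraries. The difference was small, at 1.21-fold (log2 fold change 0.28 ± 0.11 SE, unadjusted p = 0.0432, adjusted p = 0.404 in edgeR and 0.244 to 0.948 over the alternatives). *Pgk1* reads were also incomplete: 67.5% of the 75-base windows of its main transcript occur in the transcripts of other genes, mostly of *Pgk1-rs7*, and reads placed at several sites were not counted.

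*Gapdh*, which encodes the dehydrogenase after the split of the sugar and which the study used as its reference in quantitative PCR, had 8243, 8064 and 5618 normalized counts in the knockout and 8251, 5657 and 5088 in the wildtype libraries. The groups overlapped almost fully, and the log2 fold change was 0.21 ± 0.24 SE (adjusted p = 0.802 in edgeR). Here 80.3% of the windows of the main transcript are shared with other genes, so that its count too understates its level. The phosphofructokinases catalyse the committed step. *Pfkl* encodes the liver form and had 1500 to 1643 normalized counts in knockout libraries, and 1733, 911 and 959 in the wildtype libraries. *Pfkm*, the muscle form, ranged from 2122 to 2221 in knockout and from 1686 to 2515 in wildtype libraries. *Pfkp*, the platelet form, had 1098, 1172 and 697 normalized counts in the knockout and 708, 2042 and 775 in the wildtype libraries, where the sign of its log2 fold change of −0.25 turned to 0.41 without wildtype replicate 2.

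*Aldoa*, the main aldolase, ranged from 10231 to 15119 normalized counts in knockout and from 11247 to 18350 in wildtype libraries. *Aldoc* was near the detection limit, at 11.4 to 35.3 and 14.7 to 58.8. *Tpi1* interconverts the triose phosphates and ranged from 5800.2 to 7315 in knockout and 5625 to 9565 in wildtype libraries. *Gpi1*, *Pgam1*, *Eno2* and *Pkm*, which isomerize glucose 6-phosphate, shift the phosphate of phosphoglycerate, form phosphoenolpyruvate and form pyruvate, had log2 fold changes of −0.02, 0.07, −0.22 and 0.04 with overlapping groups. For these, and for all other enzymes except *Pgk1* and *Pfkl*, the standard error was larger than the difference.

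*Eno1*, the enolase that most tissues use, was listed at 0 in all 6 libraries. Its main transcript shares 65.4% of its windows with other genes, mainly with *Eno1b*, which had 1 read in 1 library and 0 in the others. The remaining windows are unique to the gene in GENCODE M21 and still gave no read, and the cause was not tested. No level of *Eno1* can be given from these counts.

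**Figure D2:**
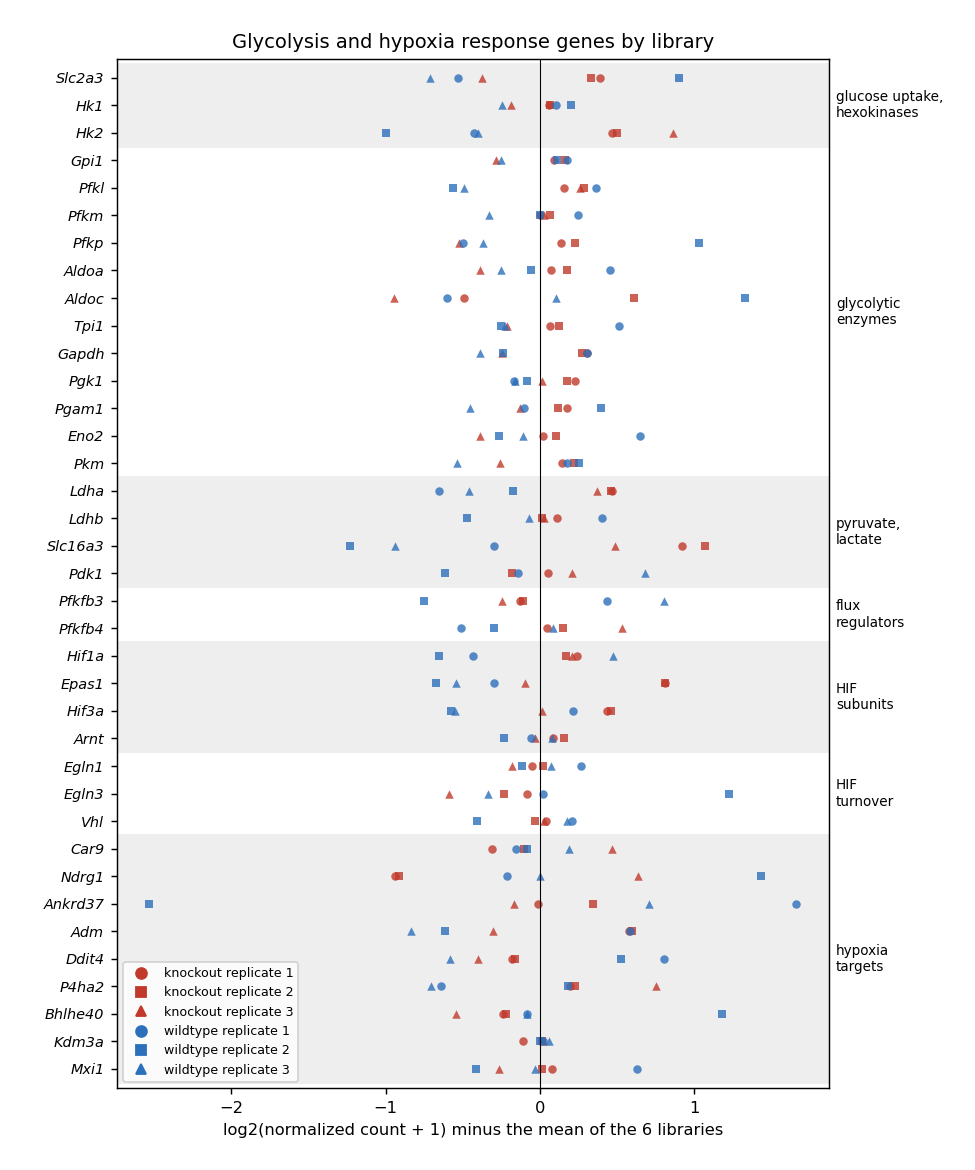
Level of each of the 37 genes tested in each library, as log2(normalized count + 1) minus the mean of the 6 libraries (horizontal axis), in red for knockout and blue for wildtype, with the marker shape for the replicate number. Red and blue separate for *Hk2*, *Ldha* and *Slc16a3*, whereas the blue squares of wildtype replicate 2 lie at the far right for *Ndrg1*, *Bhlhe40*, *Egln3* and *Pfkp*.

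Of the 4 genes for the fate of pyruvate and lactate, *Ldha* and *Slc16a3* did not overlap between the genotypes, and *Ldhb* and *Pdk1* did. *Ldha* encodes the muscle-type subunit of lactate dehydrogenase, the form known to favour the reduction of pyruvate to lactate. It had 24347, 24257 and 22770.1 normalized counts in the knockout libraries and 11197, 15626 and 12826 in the wildtype libraries. The gap between the groups, from 15626 to 22770.1, was wider than the spread within either. The fold was 1.80 (log2 fold change 0.85 ± 0.18 SE), with an unadjusted p of 0.0025 and an adjusted p of 0.125 in edgeR. The adjusted p was 2.6e-04 in DESeq2 and 0.0340 in edgeR without wildtype replicate 2, and reached 0.583 at the other end of the 14 alternatives.

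With exonic length as the divisor, *Ldha* also had the highest counted level per length in the knockout libraries. *Gapdh*, *Pgk1* and *Eno1*, whose shared reads were not counted, cannot be ranked. *Ldha* had 267, 266 and 249.6 reads per kilobase of exonic length per 1000000 reads, where the next gene of the set stayed at or below 148 (*Aldoa*). In wildtype replicates 2 and 3 it led as well, with 171 and 141 on the same scale. In wildtype replicate 1 it had 123, below *Aldoa* at 179, *Ldhb* at 164 and *Tpi1* at 126. The order can depend on the length used. The principal transcript has 741 bases for *Aldoa*, against 3710 exonic bases, and 1766 for *Ldha*, against 3310. No order of *Aldoa* and *Ldha* by principal transcript length is therefore given.

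*Ldhb*, the heart-type subunit, did not share the difference. It had 5789.6, 5406 and 5456 normalized counts in the knockout and 7098, 3863 and 5100.0 in the wildtype libraries, a log2 fold change of 0.05 ± 0.23 SE. Per length, *Ldha* made up 66.6%, 68.0% and 66.4% of the summed lactate dehydrogenase level in the knockout libraries and 42.8%, 65.7% and 54.4% in the wildtype libraries. The knockout libraries lay within 2 percentage points of each other, whereas wildtype replicate 2 came close to them. The means were 67.0% ± 0.876 and 54.3% ± 11.5 (SD, n = 3 each), with an exact two-sided permutation p of 0.1 and 0.5 when adjusted over the 10 shares.

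*Slc16a3* encodes the monocarboxylate transporter MCT4, which is known to export lactate from glycolytic cells. It was a rare transcript, with 274, 304 and 203 normalized counts in the knockout libraries and 117, 60.8 and 74.9 in the wildtype libraries. All knockout libraries exceeded all wildtype libraries, and wildtype replicate 2 was the lowest. It had the largest log2 fold change of the 37 genes, 1.62 ± 0.33 SE or 3.08-fold, with an unadjusted p of 0.0021 and an adjusted p of 0.117 in edgeR. The adjusted p was 4.6e-04 in DESeq2, 0.0699 in edgeR without wildtype replicate 2, and reached 0.532 over the 14 alternatives. Its share of the summed *Slc16a1* and *Slc16a3* level per length overlapped between the groups, from 13.9% to 18.4% in knockout and from 1.06% to 19.5% in wildtype libraries. *Pdk1*, whose kinase inhibits pyruvate dehydrogenase, had 1248, 1059 and 1388 normalized counts in the knockout and 1089, 783 and 1923 in the wildtype libraries (log2 fold change −0.04 ± 0.33 SE).

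**Figure D3:**
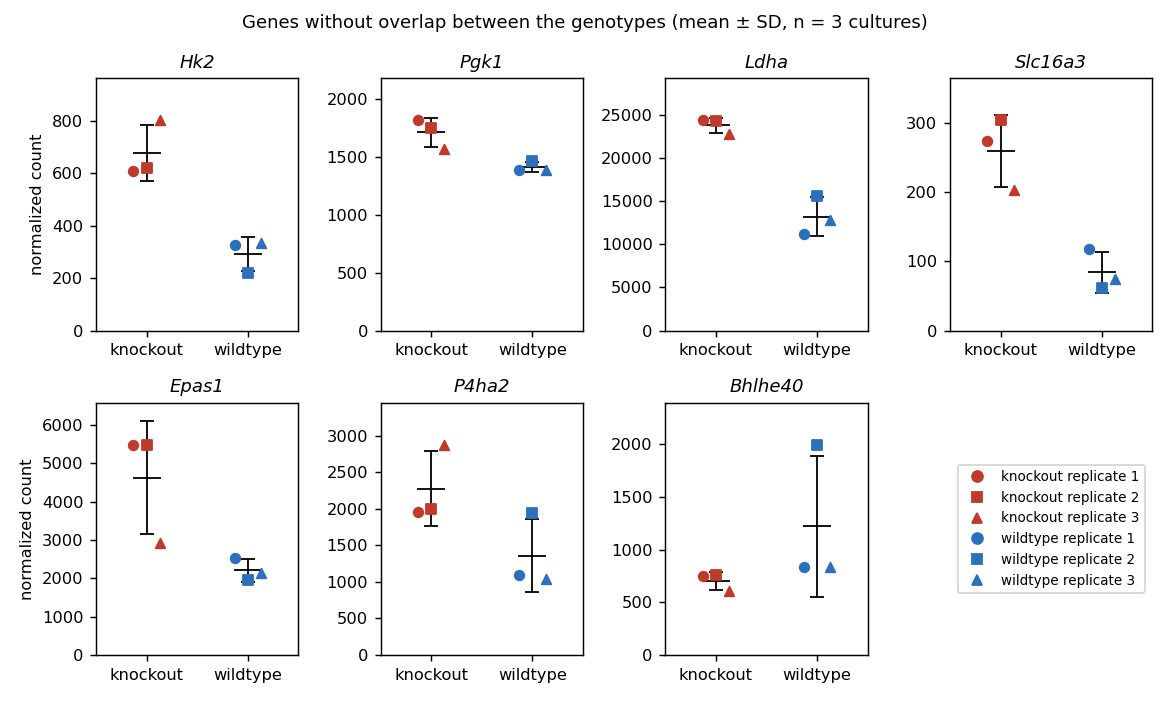
Normalized counts (vertical axes, from 0) of the 7 genes of the set whose knockout and wildtype libraries did not overlap, 1 panel per gene, with a point per library and the mean and SD of 3 cultures in black. *Hk2*, *Ldha* and *Slc16a3* have a wide gap between the groups, *Pgk1* a narrow one, and in *P4ha2* and *Bhlhe40* wildtype replicate 2 lies apart from the other wildtype libraries.

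The flux regulators *Pfkfb3* and *Pfkfb4* set the level of the sugar phosphate that activates phosphofructokinase, and *Pfkfb3* is the form best known from endothelial cells. *Pfkfb3* had 345, 349 and 318 normalized counts in the knockout and 509, 224 and 659 in the wildtype libraries, so that the knockout values fell inside the wildtype range. *Pfkfb4* had 253, 272 and 354 in the knockout and 171, 199 and 259.9 in the wildtype libraries, with a narrow overlap. Their log2 fold changes were −0.46 ± 0.38 SE and 0.48 ± 0.24 SE, with adjusted p of 0.702 and 0.496 in edgeR. *Pfkfb4* made up 57.1% ± 5.46 of the pair per length in knockout and 43.4% ± 12.8 in wildtype cultures (SD, n = 3 each), with overlapping groups and an exact two-sided permutation p of 0.3.

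**Figure D4:**
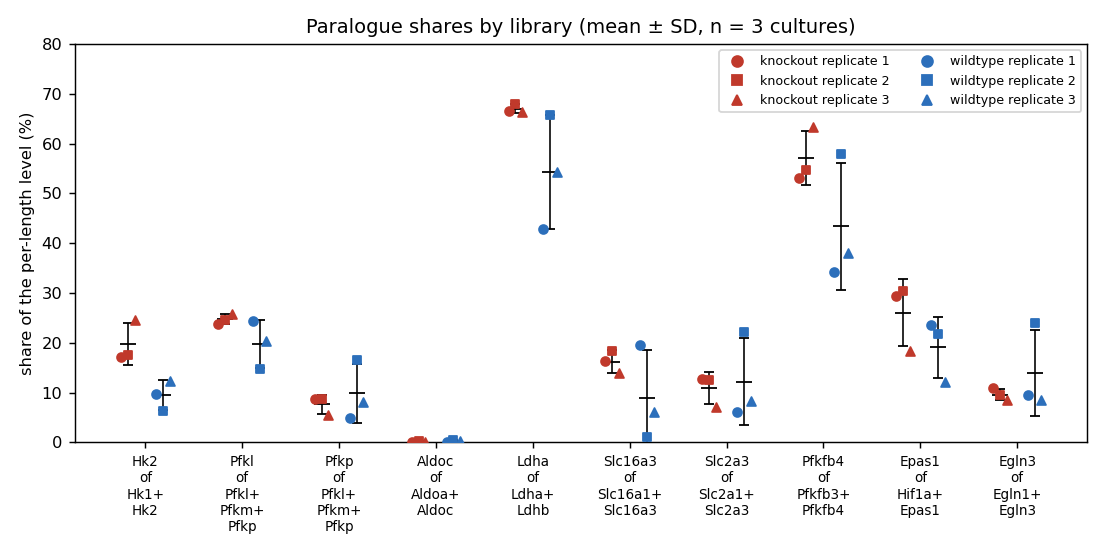
Share of 1 paralogue in the summed per-length level of its family (vertical axis, percent), for 10 shares, in red for knockout and blue for wildtype libraries, with the mean and SD of 3 cultures in black. The groups separate for *Hk2*, at 19.8% against 9.49% with the exonic lengths used here (10.8% against 4.89% with the principal transcript), and for *Ldha*, at 67.0% against 54.3%, and overlap for the other 8 shares.

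In the reads counted on the pathway, *Ldha* made up most of the difference between the genotype means. The 17 hexokinase, glycolytic and lactate dehydrogenase genes summed to 0.321% ± 0.0336 of all reads on genes in knockout and 0.269% ± 0.0450 in wildtype cultures (SD, n = 3 each). These sums overlapped, from 0.283% to 0.345% in knockout and from 0.223% to 0.313% in wildtype libraries. They hold no reads of *Eno1* and miss the shared reads of genes such as *Gapdh* and *Pgk1*. Without *Ldha*, the other 16 summed to 0.233% ± 0.0308 and 0.222% ± 0.0479, a difference well inside the spread.

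Among the HIF subunits, *Epas1* stood out. It encodes HIF2α, the alpha subunit known for its expression in endothelium. It had 5479.6, 5463 and 2913 normalized counts in the knockout libraries and 2532, 1958 and 2134 in the wildtype libraries. Knockout replicate 3 lay only slightly above the highest wildtype library, while knockout replicates 1 and 2, the most similar pair of libraries, were far above it. The fold was 2.09 (log2 fold change 1.06 ± 0.27 SE), with an unadjusted p of 0.0064 and an adjusted p of 0.192 in edgeR. The adjusted p was 0.0138 in DESeq2, 0.151 in edgeR without wildtype replicate 2, and 0.671 at the other end of the alternatives. The gene lies at chr17:86753700-86833410 on the plus strand (GENCODE M21, GRCm38).

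*Hif1a*, the subunit known for control of glycolytic genes, was more abundant and less even. It had 13875, 13189.6 and 13596 normalized counts in the knockout and 8697, 7457 and 16339 in the wildtype libraries. The knockout libraries hardly varied, but wildtype replicate 3 lay above them all (log2 fold change 0.32 ± 0.31 SE, adjusted p = 0.747 in edgeR). *Epas1* made up 18.4% to 30.4% of the 2 subunits per length in knockout and 12.1% to 23.5% in wildtype libraries. *Hif3a*, whose products include inhibitory forms, had 3137, 3188 and 2343 normalized counts in the knockout and 2690.4, 1555 and 1585 in the wildtype libraries (log2 fold change 0.57 ± 0.26 SE, adjusted p = 0.455 in edgeR). *Arnt*, the common partner, had 3288 to 3737 in knockout and 2863 to 3546 in wildtype libraries. All 4 subunit genes thus had a log2 fold change above 0, with a median of 0.45, and wildtype replicate 2 was the lowest library for each of them. Without that library the median was 0.27.

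The genes that degrade the alpha subunits had no difference beyond the spread. *Egln1*, the main oxygen-sensing prolyl hydroxylase, had 1774 to 2042 normalized counts in knockout and 1859.6 to 2425 in wildtype libraries. *Egln3*, a hydroxylase that is itself a known HIF target, had 175, 158 and 123 in the knockout and 188, 434 and 147 in the wildtype libraries, and its log2 fold change of −0.75 ± 0.44 SE shrank to −0.14 without wildtype replicate 2. *Vhl*, the recognition subunit of the ubiquitin ligase, had 1281 to 1345 in knockout and 989 to 1513 in wildtype libraries.

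The 9 hypoxia targets had no common direction: 3 had a log2 fold change above 0 and 6 below it, with a median of −0.17. *P4ha2* encodes a collagen prolyl hydroxylase subunit and was the 1 target higher in every knockout library. It had 1957, 1997 and 2875 normalized counts in the knockout and 1093, 1936 and 1044 in the wildtype libraries. Only wildtype replicate 2 came near the knockout values. The log2 fold change was 0.75 ± 0.29 SE (unadjusted p = 0.0408, adjusted p = 0.394 in edgeR), and 1.09 without wildtype replicate 2 (adjusted p = 0.0534, within a range of 0.0534 to 0.819 over the alternatives).

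*Bhlhe40*, a transcriptional repressor at chr6:108660629-108666925 on the plus strand, was the 1 gene of the set lower in every knockout library. It had 745, 756 and 603 normalized counts in the knockout and 832, 1994 and 831 in the wildtype libraries. Most of the mean difference came from wildtype replicate 2: the log2 fold change was −0.80 ± 0.37 SE with it (unadjusted p = 0.0728, adjusted p = 0.468 in edgeR) and −0.25 without it.

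*Ndrg1*, which encodes a stress-responsive protein and is a common marker of hypoxic culture, varied more within than between the genotypes. It had 2723, 2768 and 8127 normalized counts in the knockout and 4511, 14083 and 5217 in the wildtype libraries. In each genotype 1 library stood far above the other 2, and the log2 fold change of −0.81 ± 0.61 SE became −0.10 without wildtype replicate 2. *Adm* encodes adrenomedullin, a vasodilator peptide that tightens endothelial barriers. It had 3250.0, 3294 and 1759 normalized counts in the knockout and 3258, 1417 and 1219 in the wildtype libraries, so that each genotype had high and low cultures. *Ddit4*, an inhibitor of mTORC1, had 1344, 1362 and 1155 in the knockout and 2661, 2196 and 1016 in the wildtype libraries (log2 fold change −0.61 ± 0.34 SE, adjusted p = 0.551 in edgeR).

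*Kdm3a*, a histone demethylase, was the steadiest gene of the set, with 1463 to 1601 normalized counts in knockout and 1579 to 1648 in wildtype libraries (log2 fold change −0.05 ± 0.10 SE). *Mxi1*, an antagonist of MYC, ranged from 1748 to 2215 and from 1573 to 3239.8. *Car9*, a membrane carbonic anhydrase that strongly hypoxic cells express, had only 9.56 to 17.0 and 10.8 to 13.9 normalized counts. *Ankrd37*, another direct HIF target, had 9.46 to 13.9 in knockout and 36.2, 1.03 and 18.2 in wildtype libraries. At these counts a difference in either gene was not detectable.

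Of 42 further genes for glucose transport, sugar phosphates and pyruvate use, 34 were tested and 0 had an adjusted p under 0.05 in edgeR. DESeq2 called 1 as lower in knockout cultures, where it called 1.83% of all genes in that direction. The fit in edgeR without wildtype replicate 2 also called 1 as lower. Its share of all genes in that direction was not computed, so that call has no background beside it. At an unadjusted p under 0.05 in edgeR, 3 were higher in knockout cultures (*Slc16a4*, *Pdk3* and *Pfkfb1*), or 8.82% against 6.14% of all genes tested. In the other direction, 5 were lower (*Pdp1*, *Bpgm*, *Gpd1l*, *Gpd2* and *Mpc1*), or 14.7% against 5.71%. The median log2 fold change was −0.17, with 8 genes above 0 and 26 below it. All knockout libraries lay above all wildtype libraries for 4 genes (11.8%, against 10.4% of all genes tested) and below them for 7 (20.6%, against 9.54%). The 1 gene called was *Pdp1*, whose phosphatase activates pyruvate dehydrogenase. *Pdp1* had 826, 819 and 969 normalized counts in the knockout and 1631, 2488 and 2770.4 in the wildtype libraries, with no overlap (log2 fold change −1.40 ± 0.22 SE, adjusted p = 0.0952 in edgeR). *Mpc1*, a subunit of the mitochondrial pyruvate carrier, had 296, 253 and 271 in the knockout and 379, 449 and 372 in the wildtype libraries (log2 fold change −0.55 ± 0.16 SE, adjusted p = 0.269). *Pdk3*, a kinase that opposes PDP1, had 1817, 1806 and 1998 in the knockout and 1053, 1512 and 1552 in the wildtype libraries (log2 fold change 0.45 ± 0.17 SE, adjusted p = 0.389).

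Of 46 further hypoxia response genes, 44 were tested and 0 had an adjusted p under 0.05 in edgeR, while DESeq2 called *Gys1* as higher and *Insig2* as lower, where it called 2.85% and 1.83% of all genes in these directions. At an unadjusted p under 0.05, 4 were higher (*Vegfa*, *Gys1*, *Car12* and *Ppfia4*) and 4 lower (*Bnip3l*, *Rora*, *Insig2* and *Ppp1r3c*), or 9.09% each, against 6.14% and 5.71% of all genes tested, and the median log2 fold change was −0.10. *Vegfa*, the main angiogenic growth factor, had 3009, 3206 and 3835 normalized counts in the knockout and 2281, 806 and 2027 in the wildtype libraries (log2 fold change 0.97 ± 0.38 SE, adjusted p = 0.387). *Bnip3l*, a mitophagy receptor, had 3581, 3414 and 4110.0 in the knockout and 5112, 4335 and 5871 in the wildtype libraries (log2 fold change −0.46 ± 0.16 SE, adjusted p = 0.322). Known HIF targets thus lay on both sides.

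Other groups of genes differed between the genotypes alongside *Hk2*, *Ldha*, *Slc16a3* and *Epas1*. The 16 cell cycle genes listed summed to 8393 to 15323 normalized counts in knockout and 2605 to 3936 in wildtype libraries. For 14 of the 16 all knockout libraries lay above all wildtype libraries, against 10.4% of all genes tested. None of the 16 had an adjusted p under 0.05 in edgeR, and 15 were higher at an unadjusted p under 0.05, against 6.14% of all genes tested. Of 16 endothelial markers, 1 lay higher and 2 lay lower in all knockout libraries, with a median log2 fold change of −0.16 over the 10 tested. The 1 higher was *Vwf*, at only 5.68 to 23.2 normalized counts in knockout and 0 to 3.91 in wildtype libraries. The 2 lower were *Cdh5* and *Flt1*. *Cdh5*, the cadherin of endothelial junctions, had 219.8, 232 and 179 normalized counts in the knockout and 2509, 5194 and 3469 in the wildtype libraries. It was 1 of the 9 genes called (log2 fold change −4.15 ± 0.31 SE, adjusted p = 0.0133 in edgeR). *Flt1*, a receptor for VEGF, ranged from 378 to 578 in knockout and from 919.9 to 3172 in wildtype libraries. Of 10 fibroblast markers, 3 lay higher in all knockout libraries and 0 lower, and 2 of them had an unadjusted p under 0.05 in edgeR: *Dcn* at 2.00-fold and *Fap* at 4.25-fold. Of 10 mural cell markers, 5 lay higher in all knockout libraries and 0 lower, with a median log2 fold change of 0.78 over the 10, and *Notch3* at 2.37-fold and *Abcc9* at 5.03-fold had an unadjusted p under 0.05. The mural sums of 22082 to 24340.1 in knockout and 16263 to 35209 in wildtype libraries overlapped, and the highest was that of wildtype replicate 2, with *Acta2* at 16257. The sum of 10 macrophage markers ranged from 1428 to 3501 in knockout and from 144 to 3438 in wildtype libraries. The part of growth state or cell makeup in the glycolytic differences was not tested.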

How the data were processed

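Libraries were made from poly(A)-enriched RNA with a stranded kit and sequenced for 75 cycles. The submitters' processing notes name bcl2fastq 2.20.0.422, STAR 2.7.7a, HTSeq 0.13.5, DESeq2 1.26.0 and the build mm10; the annotation and the strand setting are not given in the sources used here. The deposited table holds the authors' raw read counts per gene symbol, with no normalization. Its 5 summary lines, with reads outside genes or at several sites, held 22.2% of reads and were left out, so genes with near-identical copies are undercounted.

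Of 24421 genes, 17769 had a count, and filterByExpr (minimum count 10) left 13479. Genotypes were compared with the quasi-likelihood F test of edgeR 4.0.16 (R 4.3.3, TMM factors 0.976 to 1.03, genotype alone in the design, all 6 libraries, two-sided, Benjamini-Hochberg adjustment over all genes tested, threshold 0.05), tested first on simulated counts. The level of the targeted gene is not reported here. Standard errors of log2 fold changes were derived from the F statistic. P-values measure the spread between 3 cultures per genotype. Knockout replicates 1 and 2 differed by more than sampling noise (chi-square 4.91 per degree of freedom) but far less than other pairs within a genotype (90.1 to 398), and were kept as 2 libraries. Exonic lengths, positions and 75-base windows shared with transcripts of other genes were taken from GENCODE M21 (GRCm38), promoters from RefSeq (GRCm38.p6). A per-length share divides counts by exonic length, and was compared with an exact two-sided permutation test. All 38 genes may be named; those with an unadjusted p under 0.05 or without overlap are given in full, and genes of the further lists were named from those with an unadjusted p under 0.05. The genes, lists and tests were chosen with earlier results of these data known. Alternatives were 2 other normalizations, 2 other filters, DESeq2 1.42.0, limma-voom (limma 3.58.1), a replicate block, each library left out, and knockout replicates 1 and 2 summed. Shares were also computed without length correction and, chosen after seeing the data, with the length of the principal transcript.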

Additional observations from a re-analysis of the deposited data

How the results depend on the processing

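Over 14 alternatives, 469 of 516 log2 fold changes of the 37 genes kept their direction and their side of the threshold, 6 gained a call and 41 turned sign. The 6 gained calls were those of *Hk2*, *Ldha*, *Slc16a3* and *Epas1* in DESeq2 and of *Hk2* and *Ldha* without wildtype replicate 2; 20 genes never turned sign, among them all 7 without overlap. Genes of the set called numbered 4 in DESeq2, 0 to 2 when 1 library was left out and 0 elsewhere. Over all genes, 9 calls became 21 without a filter, 21 with at least 10 counts in every library, 627 in DESeq2, 2 with the replicate block, 1 with knockout replicates 1 and 2 summed, and 0 to 395 when 1 library was left out, with 395 without wildtype replicate 2; the cause was not tested. Genes of the set without overlap numbered 7 to 13 when 1 library was left out, with 13 without any 1 wildtype library, where fewer libraries make overlap rarer. The share over all genes tested was not computed with a library left out, so this rise cannot be read as a trait of the set. The deviations of same-numbered libraries correlated at 0.207, −0.189 and 0.111. With so few libraries, and wildtype replicate 2 apart from the rest, these values cannot decide whether the numbers pair the samples. The replicate block called 0 genes of the set.

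With knockout replicates 1 and 2 summed, the log2 fold change became −0.042 for *Slc2a3*, −0.028 for *Pkm* and 0.0018 for *Pdk1*. With upper-quartile normalization the value became 0.0092 for *Gpi1* and 0.018 for *Vhl*. In limma-voom it became 0.055 for *Pdk1*, 0.018 for *Vhl* and 0.19 for *Ankrd37*, and with the replicate block 0.053 for *Pdk1* and 0.018 for *Vhl*. When 1 library was left out, it ranged from −0.21 to 0.77 for *Slc2a3*, −0.18 to 0.036 for *Hk1*, −0.15 to 0.095 for *Gpi1*, −0.10 to 0.18 for *Pfkm*, −0.52 to 0.41 for *Pfkp*, −0.26 to 0.12 for *Aldoa*, −1.25 to 0.088 for *Aldoc*, −0.19 to 0.23 for *Tpi1*, −0.11 to 0.32 for *Pgam1*, −0.40 to 0.11 for *Eno2*, −0.17 to 0.18 for *Pkm*, −0.14 to 0.30 for *Ldhb*, −0.30 to 0.39 for *Pdk1*, −0.18 to 0.093 for *Vhl*, −0.22 to 0.23 for *Car9*, −1.26 to 0.24 for *Ankrd37* and −0.39 to 0.16 for *Mxi1*. Of 80 paralogue share differences recomputed, 0 turned sign; with the length of the principal transcript, chosen after seeing the data, that of *Hk2* became 5.90 percentage points (10.8% against 4.89%). Counts near 10, as for *Car9* and *Ankrd37*, limit what can be seen.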

Other observations

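The distance between 2 libraries over the genes of the set, as the median absolute log2 ratio of their normalized counts, was 0.066 between knockout replicates 1 and 2, against 0.34 and 0.37 between either of them and knockout replicate 3. Between wildtype libraries it was 0.38 to 0.57, and between the genotypes 0.28 to 0.54. Over all genes tested the corresponding values were 0.093, 0.22 and 0.23, 0.35 to 0.44, and 0.28 to 0.39. The smallest distance between the genotypes for the set was that of knockout replicate 3 and wildtype replicate 3. With knockout replicates 1 and 2 summed to 1 library, the log2 fold changes of *Hk2*, *Ldha*, *Slc16a3* and *Epas1* were 1.27, 0.83, 1.54 and 0.92, with adjusted p of 0.462 to 0.667 in edgeR.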
